A study of Rattus norvegicus with 12 samples.

Results

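The 7 genes described here carry the adenosine signal: the receptors Adora1, Adora2a, Adora2b and Adora3, the enzyme Nt5e that makes extracellular adenosine, and the enzymes Ada and Adk that remove it. They were chosen by gene symbol alone, as every non-control probe whose name on the array is one of these 7, and they make up 7 of the 35608 genes, 10 of the 41012 probes and 28 of the 43379 spots. Adora1, Adora2a and Ada each have 2 probes. One probe of Adora1 and one of Adora2a are spotted 10 times on each array, and each other probe is spotted once. The values come from the dorsal striatum of 12 male rats in 4 groups of 3, with 1 single-colour Agilent array per rat.

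All 12 rats had 9 µg of 6-OHDA, a toxin that kills dopamine neurons, injected on one side into the left substantia nigra. The 6-OHDA group had the lesion and nothing else. The HFS group also had an electrode implanted in the subthalamic nucleus (STN) on the lesioned side, which was stimulated without pause for 5 days at 130 Hz with 80 µs pulses of 60 µA. The DOPA group had the lesion and L-DOPA, the dopamine precursor, at 25 mg/kg with 12.5 mg/kg benserazide, in 2 injections per day 12 h apart for 19 days. The DOPA/HFS group had both, with the stimulation over the last 5 days of the L-DOPA course. An electrode was placed only in the 2 stimulated groups, so implantation and current cannot be told apart. Stimulated rats were killed as soon as the current was switched off and L-DOPA was last given 12 h before killing. No unlesioned striatum was on these arrays, so every difference is one among lesioned rats.

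Adenosine arises outside cells when ATP is stripped of its phosphates, the last step being carried out by Nt5e (CD73). It acts on 4 G protein-coupled receptors: A1 is widespread and lowers cyclic AMP, while A2A is concentrated in the striatopallidal neurons, where it raises cyclic AMP and opposes the dopamine D2 receptor. A2B and A3 are sparser in brain. Adk returns adenosine to AMP inside cells, largely in astrocytes, and Ada turns it into inosine.

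The 3 arrays of a group sit on 3 slides, each slide carrying 1 array of every group, and each group holds the same position on all of them, so position and group cannot be told apart. Between 50.5 and 63.2% of spots per array were well above background by the scanner software's own call. The third DOPA/HFS array had 4175 spots marked as outliers against 2 to 25 on the other arrays; of its 28 spots for these genes, 1 was marked, a spot of Ada. Markers of striatal projection neurons were well above background on every array, with all 11 genes of a striatopallidal list and all 4 of a striatonigral list passing the detection filter. Markers of choroid plexus, which lies in the ventricle beside the striatum, differed between arrays. Of 8 on the array, 6 could be read on all 12 arrays, and their summed linear signal ranged from 230.0 to 365 in the 6-OHDA group, from 4250 to 88800 in the HFS group, from 217 to 16400 in the DOPA group and from 259 to 896 in the DOPA/HFS group. Of 7 such markers tested, 7 had an unadjusted limma p under 0.05 in HFS against 6-OHDA, all higher with HFS. No choroid plexus marker was called, and the part of this tissue in the results below was not tested.

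None of the 7 genes was called in any of the 8 comparisons made with limma across 20460 genes: HFS, DOPA and DOPA/HFS against 6-OHDA, DOPA/HFS against DOPA and against HFS, the average effect of L-DOPA, the average effect of HFS, and the interaction of the 2 treatments. Calling a gene took a fold above 1.2 or below 0.8 together with an adjusted p (Benjamini-Hochberg) under 0.1. Among all genes 0.00489% were called in DOPA against 6-OHDA and in the average effect of L-DOPA, and 0% in the other 6, so the members' count of 0 is what the array as a whole gave. In HFS against 6-OHDA, 0 of the 7 genes had groups that did not overlap, a state met in 5.12% of all genes. At an unadjusted p under 0.05, 0 members stood out in HFS against 6-OHDA (2.34% of all genes), 0 in DOPA against 6-OHDA (2.59%), 1 in DOPA/HFS against 6-OHDA (2.76%), 1 in DOPA/HFS against DOPA (3.79%) and 0 in DOPA/HFS against HFS (2.43%). The average effects of L-DOPA (2.73% of all genes) and of HFS (4.35%) and the interaction (1.98%) gave 0 members each. Both hits were the same gene, Ada. The comparisons share arrays, the first 3 sharing the same 6-OHDA rats, and so are not independent.

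**Figure D1:**
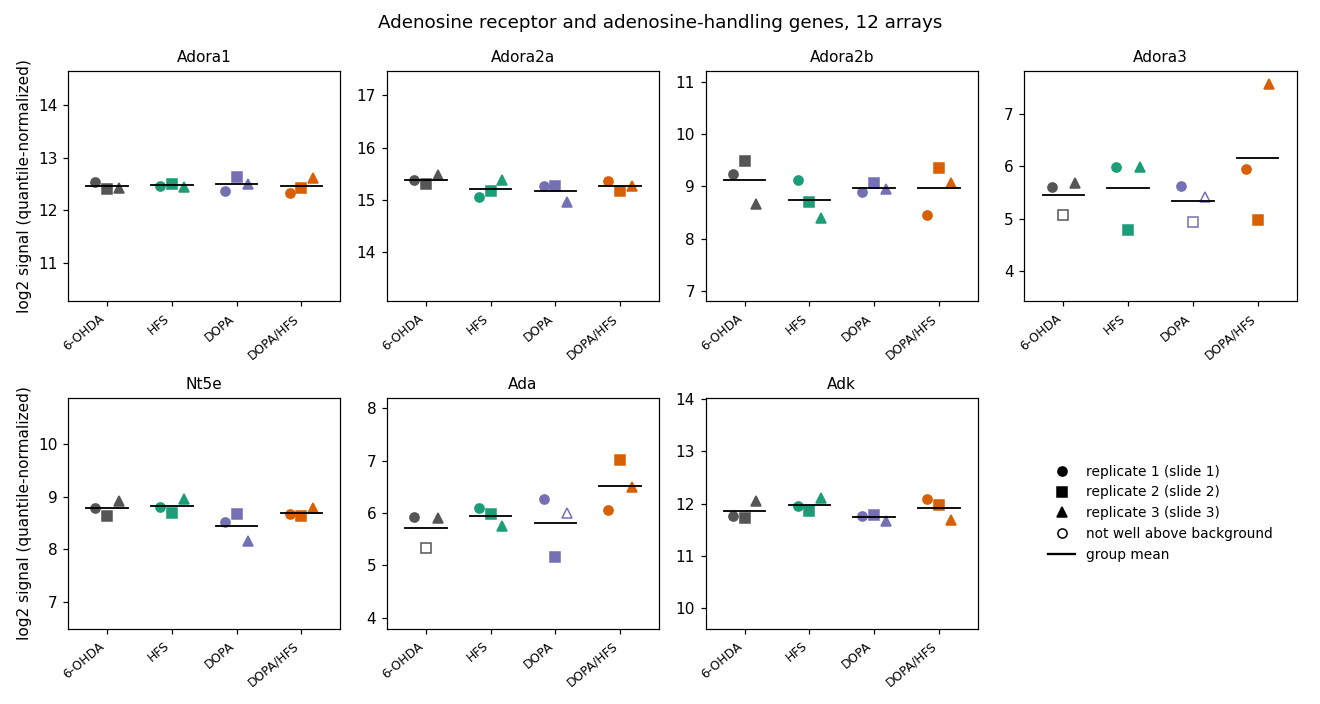
Quantile-normalized log2 signal (vertical axis, the same span in every panel) of each of the 7 genes on each of the 12 arrays, by group (horizontal axis); symbols mark the slide, open symbols a spot not well above background, and bars the group mean. Adora1, Adora2a, Nt5e and Adk sat within narrow bands, while Adora3 and Ada were dim and spread widely, Ada reaching 7.01 and Adora3 7.57 in the DOPA/HFS group.

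The A1 receptor gene Adora1 was the steadiest of the set on its brighter probe, but not on its other one. On its brighter probe, the mean of 10 spots per array, log2 signal was 12.53, 12.40 and 12.43 in the 6-OHDA rats. It was 12.47, 12.50 and 12.45 with HFS. It was 12.37, 12.64 and 12.50 with L-DOPA, and 12.33, 12.43 and 12.61 with both. All 4 groups overlapped, and the whole span over 12 rats was 0.31 on the log2 scale.

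On that probe the SD of Adora1 within groups was 0.11 log2 units. A larger one was found in 97.3% of the tested genes, the median gene having 0.27. Its log2 difference from 6-OHDA was 0.02 in HFS (SE 0.13, n = 3 against 3, 95% interval -0.26 to 0.31), 0.05 in DOPA (-0.23 to 0.34) and 0.01 in DOPA/HFS (-0.28 to 0.29). On the fold scale these 3 intervals together ran from 0.823 to 1.27, so larger changes lie outside them on this probe. The second probe, a single spot, spread more (SD 0.27), from 8.79 to 9.59 over the 12 rats, with 6-OHDA arrays at 9.45, 8.79 and 9.42. Its differences from 6-OHDA were 0.17, 0.25 and 0.19 (SE 0.22), with the groups overlapping in each. The 3 fold intervals of this second probe were wider, together running from 0.811 to 1.65.

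The A2A receptor gene Adora2a was strongly detected on every array by both probes, and none of its spots was saturated. Its brighter probe, again 10 spots, read 15.39, 15.31 and 15.47 in the 6-OHDA rats. Values with HFS were 15.05, 15.18 and 15.39. They were 15.26, 15.26 and 14.97 with L-DOPA, and 15.36, 15.18 and 15.27 with both.

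Every DOPA array lay below every 6-OHDA array on this probe, the closest values being 15.26 and 15.31, while the other groups overlapped the lesion-only rats. Non-overlap of this kind was met in 6.26% of all genes in DOPA against 6-OHDA, and Adora2a was the only one of the 7 to show it there. On this probe the mean log2 differences from 6-OHDA were all negative and small. They were -0.18 in HFS (SE 0.14, 95% interval -0.50 to 0.13), -0.23 in DOPA (-0.54 to 0.09, exact two-sided permutation p = 0.1, the smallest that 3 against 3 allows) and -0.12 in DOPA/HFS (-0.43 to 0.19). The limma adjusted p was 0.998 for HFS and 1 for the other 2 differences. Within slides the DOPA difference was -0.13, -0.05 and -0.50, and without the third DOPA array the mean was -0.13. In whole striatal tissue, fewer cells of a type and less RNA per cell cannot be told apart, so neither reading of such a difference can be chosen.

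The second Adora2a probe did not show the separation. It read 13.45, 12.85 and 13.17 in the 6-OHDA rats against 13.20, 12.71 and 12.97 with L-DOPA, a difference of -0.20 (SE 0.19) with overlapping groups and an exact permutation p of 0.5. With HFS it read 12.90, 12.82 and 13, and with both treatments 13.15, 13.08 and 13.41, each of these above every HFS array. That last difference was 0.31 (SE 0.19, limma adjusted p = 1), against 0.06 on the 10-spot probe, where the groups overlapped. Non-overlap between DOPA/HFS and HFS was met in 6.37% of all genes. From 6-OHDA the second probe differed by -0.25 in HFS and by 0.06 in DOPA/HFS (SE 0.19 for both). In DOPA/HFS the 2 probes thus differed in sign.

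The interaction asks whether HFS acts differently with and without L-DOPA. For Adora2a it was 0.29 on the 10-spot probe (SE 0.20, 95% interval -0.15 to 0.74) and 0.50 on the other probe (-0.08 to 1.08), and on the 10-spot probe it was positive on all 3 slides, at 0.44, 0.06 and 0.38. Neither interval excludes 0. The genes of the striatopallidal list mark or signal within the cells that carry A2A, and 10 of the 11 could be read on all 12 arrays. They summed to 200000 to 251000 units of linear signal in the 6-OHDA rats, 216000 to 232000 with HFS, 226000 to 250000 with L-DOPA and 207000 to 236000 with both.

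**Figure D2:**
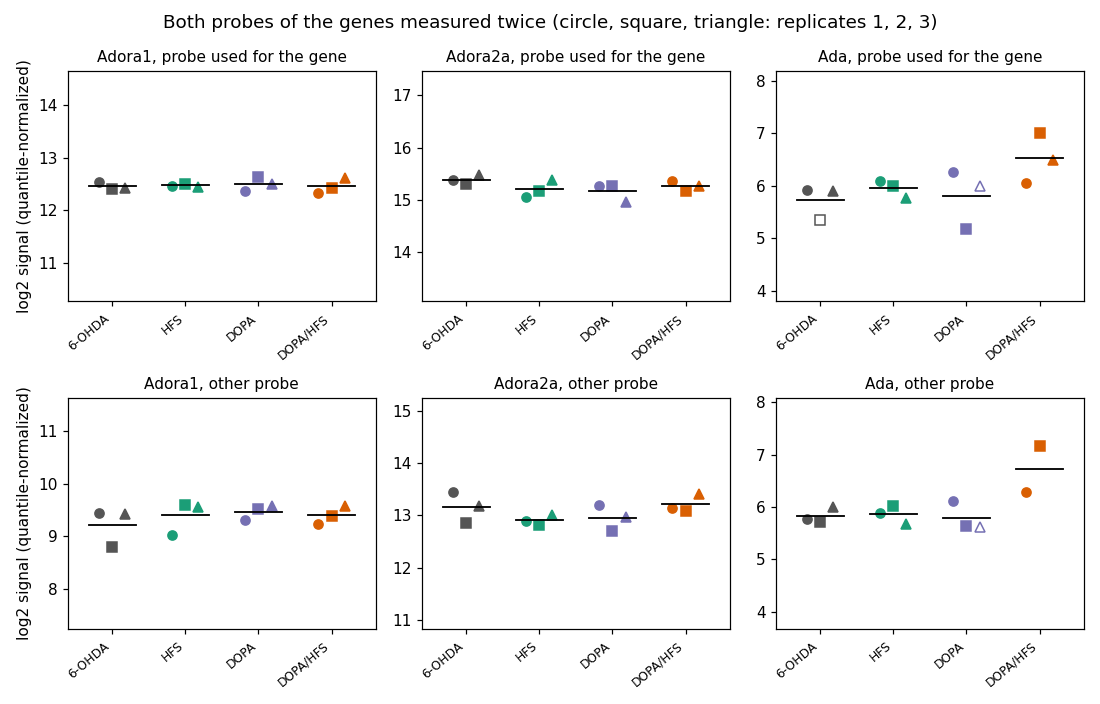
Log2 signal (vertical axis, the same span in every panel) on both probes of Adora1, Adora2a and Ada by group (horizontal axis), with 1 symbol per rat, open where not well above background, and bars at the group means. The 2 probes of Ada place the DOPA/HFS group highest, whereas for Adora2a only the probe in the upper panel separates the DOPA from the 6-OHDA rats.

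The A2B receptor gene Adora2b, whose receptor needs high adenosine to be engaged, was measured by a single spot and was well above background on all 12 arrays. The 6-OHDA rats gave 9.23, 9.49 and 8.67. The HFS rats gave 9.12, 8.71 and 8.39, the DOPA rats 8.90, 9.07 and 8.94, and the DOPA/HFS rats 8.46, 9.35 and 9.07. The groups overlapped throughout. The difference from 6-OHDA was -0.39 in HFS (SE 0.27, 95% interval -0.99 to 0.21), negative on all 3 slides at -0.11, -0.78 and -0.28. It was -0.16 in DOPA and -0.17 in DOPA/HFS, with the limma adjusted p between 0.998 and 1. Without the second 6-OHDA array these 2 became 0.02 and 0.01, and without the third the HFS difference grew to -0.62.

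The A3 receptor gene Adora3, expressed in rodent brain chiefly by microglia, lay close to background. It was well above it on 9 of 12 arrays, 2 of the 6-OHDA, 3 of the HFS, 1 of the DOPA and 3 of the DOPA/HFS arrays. Values were 5.61, 5.07 and 5.67 with the lesion alone, 5.98, 4.78 and 5.99 with HFS, 5.63, 4.93 and 5.42 with L-DOPA, and 5.94, 4.97 and 7.57 with both. The second array was the lowest of its group in all 4 groups. One reading, 7.57 on the third DOPA/HFS array, which is the array with most outlier spots, stood alone at the top.

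That reading carried the largest mean difference of Adora3 from 6-OHDA, 0.71 in DOPA/HFS (SE 0.56, 95% interval -0.52 to 1.93). Without that array the difference was 0. Against 6-OHDA it was 0.13 in HFS and -0.12 in DOPA (SE 0.56 for both). The SD of Adora3 within groups was 0.78 log2 units, exceeded by 4.46% of tested genes, and its intervals are wide enough to hold a fold of 0.393 and one of 3.82. The 7 microglial markers all passed the filter, and their summed linear signal was 18700 to 20700 in the lesion-only rats, 16800 to 20500 after HFS, 17300 to 20800 after L-DOPA and 17200 to 22200 after both.

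Among the 3 enzymes, Nt5e, which splits AMP into adenosine and phosphate at the cell surface, read lowest with L-DOPA alone. Its single spot gave 8.79, 8.64 and 8.92 in the 6-OHDA rats. It gave 8.80, 8.70 and 8.95 with HFS. With L-DOPA it gave 8.52, 8.67 and 8.15, and with both treatments 8.67, 8.64 and 8.78. The DOPA rats overlapped the 6-OHDA and DOPA/HFS groups through their second array alone, 8.67, the lowest reading of both those groups being 8.64. The third DOPA array was the lowest of the 12.

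For Nt5e the difference of DOPA from 6-OHDA was -0.34 (SE 0.16, 95% interval -0.68 to 0.01), a fold of 0.792 (0.622 to 1.01), with a limma adjusted p of 1. It was 0.03 in HFS and -0.09 in DOPA/HFS. By slide the DOPA difference was -0.27, 0.03 and -0.77, and without the third DOPA array it shrank to -0.19. The average effect of L-DOPA, over rats with and without HFS, was -0.23 (SE 0.11, 95% interval -0.48 to 0.02). An exact permutation within the HFS and non-HFS rats gave it p = 0.025, two-sided. It was the only 1 of the 49 exact tests made on the 7 genes at or under 0.05, and its Benjamini-Hochberg adjusted value was 0.817. Tests of 3 against 3 allow no p under 0.1 and average effects none under 0.005. A single small p could therefore not have passed this correction, so the adjusted value decides nothing about Nt5e. The third DOPA array also gave the lowest reading of the 10-spot Adora2a probe, 14.97. It had the smallest share of spots well above background, 50.5%, and the highest choroid plexus signal of its group, 16400, whose part in these readings was not tested.

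Ada, which deaminates adenosine to inosine and also deoxyadenosine to deoxyinosine, had the largest difference from 6-OHDA relative to its error among the 7 genes. The probe used for the gene was dim and was well above background on 10 of 12 arrays. Its mean was the higher of the 2 only with a spot of the other probe left out, as described below, and the other probe was well above background on 11. The probe used read 5.92, 5.34 and 5.91 in the 6-OHDA rats. With HFS it read 6.10, 5.99 and 5.76, and with L-DOPA 6.27, 5.17 and 6.00. With both treatments it read 6.06, 7.01 and 6.50. Each DOPA/HFS array thus lay above each 6-OHDA array, though the lowest of them, 6.06, was within the HFS and DOPA ranges.

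DOPA/HFS exceeded 6-OHDA in Ada by 0.80 log2 units (SE 0.31, 95% interval 0.12 to 1.48), a fold of 1.74 (1.08 to 2.79). The unadjusted limma p of 0.0257 ranked 257 of 20460 genes and became 1 after Benjamini-Hochberg adjustment. The exact permutation p was 0.1, the smallest possible. Ada was the only one of the 7 genes whose groups did not overlap in this comparison, a state met in 4.19% of all genes. Slide by slide the difference was 0.14, 1.67 and 0.59, and the second slide holds both the lowest 6-OHDA and the highest DOPA/HFS reading. Without the second DOPA/HFS array it was 0.56, and without the second 6-OHDA array 0.61.

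DOPA/HFS also exceeded DOPA in Ada, by 0.71 (SE 0.31, limma adjusted p = 1), with overlapping groups and slide values of -0.21, 1.84 and 0.50. It was 0.39 without the second DOPA array and 0.47 without the second DOPA/HFS array. Against HFS it was higher by 0.57 (SE 0.31, 95% interval -0.11 to 1.26), and by 0.33 without the second DOPA/HFS array. Over all comparisons of DOPA/HFS with DOPA and with HFS, 0 of the 7 genes had groups that did not overlap on the probe used for the gene, where 9.42 and 6.37% of all genes did. HFS alone differed from 6-OHDA by 0.23 and DOPA alone by 0.09 (SE 0.31 for both). The average effect of HFS was 0.47 (SE 0.22, exact permutation p = 0.08) and the interaction 0.48 (SE 0.44).

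The second Ada probe gave much the same order of groups. It read 5.77, 5.71 and 6.00 with the lesion, 5.88, 6.02 and 5.68 with HFS, 6.11, 5.64 and 5.61 with L-DOPA, and 6.29 and 7.17 on the 2 DOPA/HFS arrays that could be used. Both of these were above all 9 other readings. The spot on the third DOPA/HFS array was marked as an outlier by the scanner software. It would have read 11.72 and was left out, so the fit has 2 DOPA/HFS values for this probe. The differences were 0.90 from 6-OHDA (SE 0.26), 0.94 from DOPA and 0.87 from HFS, each with a limma adjusted p of 1. The interaction on this probe was 0.91 (95% interval 0.12 to 1.70, adjusted p = 1). The 2 probes are read on the same RNA and are not separate evidence from further rats.

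Adk, the kinase that keeps resting adenosine low, was measured by 1 spot and stayed within 0.44 log2 units over all 12 rats. The 6-OHDA rats gave 11.77, 11.73 and 12.05. The HFS rats gave 11.96, 11.85 and 12.11, the DOPA rats 11.77, 11.78 and 11.67, and the DOPA/HFS rats 12.08, 11.98 and 11.69. Its difference from 6-OHDA was 0.13 in HFS (SE 0.15, 95% interval -0.21 to 0.46), higher on all 3 slides at 0.19, 0.12 and 0.06. It was -0.11 in DOPA (-0.44 to 0.22) and 0.07 in DOPA/HFS (-0.27 to 0.40). The average effect of HFS was 0.15 (SE 0.11, exact permutation p = 0.095). Astrocytes hold much of the brain's Adk, and the summed linear signal of the 7 of 8 astrocyte markers readable on all 12 arrays overlapped between the groups, at 52700 to 61900, 52200 to 58600, 53400 to 63800 and 53700 to 58600 in the 6-OHDA, HFS, DOPA and DOPA/HFS rats.

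**Figure D3:**
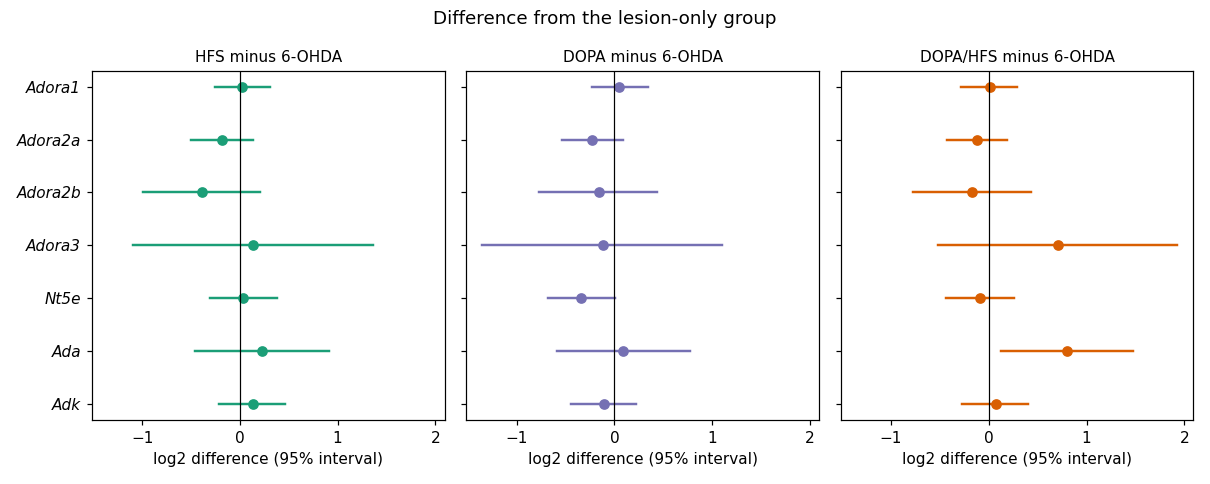
Log2 difference of each treated group from the 6-OHDA group (horizontal axis) for the 7 genes (vertical axis); points are limma estimates from 3 arrays a group and lines their 95% intervals. Of the 21 intervals only that of Ada in DOPA/HFS, 0.12 to 1.48, lies clear of 0, and those of Adora1 are the narrowest.

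Lists of 42 further genes covered extracellular nucleotide breakdown, nucleoside transport, intracellular purine breakdown and salvage, and the P2rx and P2ry nucleotide receptors. The receptors include P2ry6 and P2ry14, which are not ATP or ADP receptors, and the list before it includes the cell-surface peptidase Dpp4. Of the 42, 37 were on the array and 25 past the detection filter, and 0 of the 25 were called in any of the 8 comparisons. At an unadjusted p under 0.05, HFS against 6-OHDA had 1 of the 25 higher and 1 lower, beside 2.34% of all genes in either direction, and neither DOPA nor DOPA/HFS against 6-OHDA had any. The average effect of HFS and the interaction each had 1 lower, beside 4.35 and 1.98% of all genes, and the average effect of L-DOPA had 0. The medians of the 4 lists lay between -0.08 and 0.13 in the 3 comparisons with 6-OHDA, beside -0.01 to 0.01 over all genes.

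The lower one was Enpp1, an ectoenzyme that cuts ATP to AMP and so feeds Nt5e. It read 8.39, 8.28 and 8.18 in the 6-OHDA rats and 7.92, 7.99 and 7.83 in the HFS rats, which did not overlap. With L-DOPA it read 8.32, 8.38 and 8.05, and with both 8.02, 8.12 and 8.26. The HFS difference was -0.37 (SE 0.14, limma adjusted p = 0.998), and the average effect of HFS on Enpp1 was -0.24 (SE 0.10, exact permutation p = 0.025, limma adjusted p = 0.911). The higher one was Slc29a3, a nucleoside transporter of intracellular membranes, at 8.50, 8.68 and 9.04 with the lesion and 8.94, 9.31 and 9.11 with HFS, a difference of 0.38 (SE 0.17, adjusted p = 0.998) with overlapping groups. The interaction of Slc29a3 was -0.53 (SE 0.24, adjusted p = 1).

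In the striatopallidal list, which held the D2 receptor, Penk, Gpr6 and the cyclic AMP signalling genes Gnal, Adcy5, Ppp1r1b and Pde10a, 0 of 11 genes were called. Its median log2 difference from 6-OHDA was -0.05 after HFS, 0.08 after L-DOPA and -0.03 after both. Cnr1, the cannabinoid CB1 receptor, read 12.06, 12.24 and 12.14 with L-DOPA against 11.71, 11.53 and 10.57 in the 6-OHDA rats, a difference of 0.88 (SE 0.33, limma adjusted p = 1) with no overlap. Its average L-DOPA effect was 0.68 (SE 0.24).

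The striatonigral list, the neurons that carry D1 rather than A2A, had 0 of 4 genes called and held the largest difference from 6-OHDA among the 4 purine and 2 striatal neuron lists. Pdyn, the dynorphin precursor, read 16.09, 16.21 and 15.98 in the DOPA rats against 14.53, 14.83 and 14.74 in the 6-OHDA rats. That difference was 1.39 (SE 0.28), with a limma adjusted p of 0.843. With both treatments Pdyn read 14.68, 15.87 and 15.81, a difference of 0.76 (SE 0.28, adjusted p = 1), the first array lying within the 6-OHDA range. Its average L-DOPA effect was 1.11 (SE 0.20, adjusted p = 0.386). Tac1, the substance P precursor, differed by 0.37 in HFS (SE 0.17, adjusted p = 0.998).

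**Figure D4:**
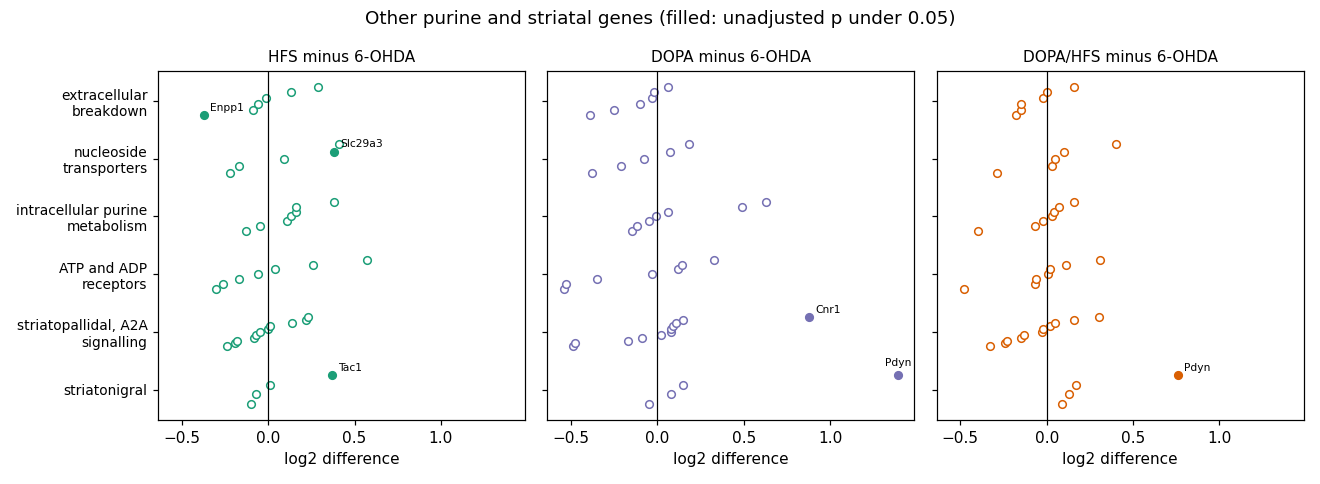
Log2 difference from the 6-OHDA group (horizontal axis) of the tested genes of 4 purine lists and 2 striatal neuron lists (vertical axis), 1 point per gene, filled and named where the unadjusted limma p is under 0.05. The purine genes crowd around 0 in the 3 comparisons, and Pdyn at 1.39 in DOPA is the point farthest from 0.

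Each of the 7 was compared with the 18348 other genes measured on all 12 arrays, by Pearson's r of log2 signal. The genes with the most similar patterns are given as a description over 12 arrays that share slides, groups and normalization. Adk was followed most closely by Jam3 (r = 0.941, Spearman's rho = 0.944) and Gtf3c3 (r = 0.935, rho = 0.965). Nt5e was followed by RGD1566307 (r = 0.897, rho = 0.741) and Foxk2 (r = 0.870, rho = 0.734), and Ada by the transcript TC552043 (r = 0.950, rho = 0.951) and Sla (r = 0.884, rho = 0.867). For Adora1 the nearest was TC524765 (r = 0.894), and for Adora2a RGD1560915 (r = 0.940) and S63519 (r = 0.849). Adora2b was nearest to TC527973 (r = 0.980) and AA859337 (r = 0.978), and Adora3 to ENSRNOT00000039637 (r = 0.969) and TC542712 (r = 0.967). None of the genes named here is a member of the purine or striatal lists.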

How the data were processed

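Each deposited scanner file holds 1 array, and the labels gave its group. The intensity values in them were made by the authors with Agilent Feature Extraction (version 9.1 per the submitters' processing notes), which subtracted local background. A deposited table of log2 values, quantile normalized by the authors, served as an alternative. Here the background-subtracted intensities of non-control spots, outlier spots left out, were taken to log2, quantile normalized and averaged per probe with limma 3.58.1 in R 4.3.3. Probes well above background on a share of at least 0.4 of arrays were kept, and the brightest probe stood for its gene. All 7 genes passed. Of their array accessions, that of Adora3 is not in the RefSeq gene table of assembly GRCr8, so its name is the array's. Surrogate values for very dim spots were used as given.

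A single limma fit over 4 group means gave all comparisons, with Benjamini-Hochberg adjustment over 20460 genes. The fold limits for a call, above 1.2 or below 0.8, are those of the study's methods. The limit of 0.1, applied here to the adjusted p, follows the false discovery rate that the methods give for HFS and DOPA. For DOPA/HFS the methods give a higher rate. The methods' own tests, Significance Analysis of Microarrays followed by a Wilcoxon test, were not run here. Exact two-sided permutation tests shuffled arrays between 2 groups or, for average effects, within levels of the other treatment. Each array is a separate rat, and only the number of arrays sets the precision. The steps were tested on simulated data. The genes and lists were chosen with earlier results of these data known. Genes named from the lists are, per comparison with 6-OHDA and per average effect, up to 3 per list with the lowest unadjusted p under 0.05, and for likeness the 2 highest correlations per gene. Of the genes this rule picks, 2 are not reported here. The alternatives were the deposited log2 table, 75th percentile scaling, normexp correction (offset 50), the mean of all probes, no filter, outlier spots kept, the slide as a block, only the arrays compared, other limits for a call, and each array left out. Supplementary and qPCR data were not used here.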

Additional observations from a re-analysis of the deposited data

How the results depend on the processing

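The count of called genes among the 7 was 0 under every one of the 22 alternatives that applied, in all 8 comparisons. With the replicate number, which is the slide, as a block, it was likewise 0 in each, and the Ada difference between DOPA/HFS and 6-OHDA stayed 0.80 (SE 0.33). Deviations of same-numbered arrays correlated at -0.288 to 0.477. Every pair numbered 2 was positive, at 0.067 to 0.425, while pairs numbered 1 and pairs numbered 3 had values of either sign. Such correlations cannot tell what same-numbered arrays share besides the slide, which was not tested. Of 25 gene differences recomputed, 15 were not reversed under any alternative, among them Adora2a, Nt5e in DOPA and Ada in DOPA/HFS. The 25 are the 21 differences from 6-OHDA and further ones named by hand with these data known. Those were Ada in DOPA/HFS against DOPA and against HFS, the average HFS effect on Ada and the average L-DOPA effect on Nt5e. None of these added ones reversed, which raises the count. Adora3 in DOPA/HFS is among the 15 although it fell to 0 without 1 array. The second Adora2a probe by itself, at 0.06 in DOPA/HFS, was not one of the alternatives. The Ada difference in DOPA/HFS was 0.43 with normexp correction, 0.45 in the deposited log2 table and 0.56 to 1.03 when single arrays were left out. With outlier spots kept it was 2.55, since the other probe, with the marked reading of 11.72, then stood for the gene. The deposited table also places the median of all genes in DOPA/HFS at -0.12.

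Signs turned for differences near 0. With 75th percentile scaling Adora1 became -0.05 in HFS and -0.03 in DOPA/HFS. In the deposited table Adora1 was -0.07 and Adk -0.02 in DOPA/HFS. With outlier spots kept, Ada in DOPA was -0.04, which is the value of its other probe, then standing for the gene. Under that setting Adora1 and Adk in DOPA/HFS were -0.07 and -0.03. Leaving out single arrays gave -0.07 to 0.53 for Adora3 and -0.04 to 0.10 for Nt5e in HFS. In DOPA it gave -0.02 to 0.12 for Adora1, -0.39 to 0.02 for Adora2b, -0.31 to 0.08 for Adora3 and -0.14 to 0.41 for Ada. In DOPA/HFS it gave -0.07 to 0.07 for Adora1, -0.40 to 0.08 for Adora2b and -0.02 to 0.18 for Adk. Adora3 in DOPA/HFS ran from 0 to 1.30 and did not turn. Apart from the change of probe for Ada, the cause of these turns was not tested. Ada and Adora3 sit near background, which limits their precision.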
